A study of Mus musculus with 12 samples.

Results

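The clustered protocadherin genes were examined as a family: 57 protein-coding genes of the 55487 in the deposited table, taken as every gene whose symbol starts with Pcdha, Pcdhb or Pcdhg and that is not annotated as a pseudogene. The family comprised 14 Pcdha, 22 Pcdhb and 21 Pcdhg genes. Clustered protocadherins are cell adhesion molecules of the cadherin family that sit on the surface of neurons and bind copies of themselves on neighbouring cells. Each neuron transcribes a small, largely random selection of them, chosen at the promoters with the help of the DNA-binding protein CTCF and the cohesin ring, and the resulting combination lets the branches of one neuron recognise and avoid each other. The genes at the end of the Pcdha and Pcdhg clusters, called C-type, are instead used by most neurons of a kind.

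Total RNA was sequenced from brain and liver of 6 mice, in 4 groups of 3 libraries. KO mice (A, C and F) lack Mettl5, which encodes an 18S rRNA methyltransferase, through deletion of its floxed exon 2 by CMV-cre, so the loss is in the whole body and not in neurons alone. The controls (B, D and E) are called WT here because the labels do so, whereas the paper calls the controls of its mouse RNA-seq heterozygous (Mettl5+/-) in some places and wild type in others, and which of these they were was not tested here. The paper also speaks of pairs of mice, but the labels do not say which KO mouse goes with which control, so no genotype comparison was paired. The allele was made in C57BL/6 x 129S6 embryonic stem cells and crossed to C57BL/6, and the labels give no treatment, age or sex. Nothing in the labels says which part of the brain was taken beyond the word brain.

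Library totals ran from 14403309 to 18365114 counts in brain and from 16145754 to 21623180 in liver. Mettl5 itself had 41, 55 and 58 counts in KO brain against 141, 117 and 100 in WT brain, and 64, 65 and 78 in KO liver against 290, 127 and 147 in WT liver, so every KO library lay below every WT library. In each genotype, 1 of the 3 mice had next to no Y-linked transcripts, with 1 to 20 counts per library against 2112 to 3302 in the other mice. Those mice, E and F, had 9446 to 19028 Xist counts per library against 0 to 19 in the others. By these transcripts E and F were female and the other mice male. All 5 neuron markers were detected in every brain library, with a summed level between 3084 and 3730 CPM (normalised read count, scaled to the library total), and the 4 hepatocyte markers together lay between 55250 and 71660 CPM over the liver libraries. The brain groups were not alike in their region markers, as described with the results that these touch.

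All 57 genes lie on the plus strand of chromosome 18 in mm10. The Pcdha genes span positions 36930184 to 37187661, the Pcdhb genes 37264938 to 37524479 and the Pcdhg genes 37661793 to 37841873. Each Pcdha and Pcdhg gene consists of its own large first exon, which encodes the extracellular and membrane part, spliced to constant exons shared by the whole cluster, whereas Pcdhb genes stand alone. A read in a shared exon belongs to several genes and is left out by the counting tool in its default mode, so a gene's count rests mainly on its own exon. The shared part took a median of 53.6% of the exon bases of Pcdha genes and 44.5% of those of Pcdhg genes, against a median of 0% for Pcdhb genes. Levels are therefore given as CPM per kilobase (kb) of exon that no other gene shares. Pcdha4 was the extreme case, with 91.4% of its exon bases shared and 494 bases left.

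In brain the family drew 6750 to 12141 counts per library. The Pcdhg genes were the highest of the 3 clusters per unit of length, with a median of 4.41 CPM per kb over all 6 brain libraries, followed by Pcdha at 2.30 and Pcdhb at 1.32. Pcdhgc3, a C-type gene also used outside neurons, was first of all 57 genes, at 16.6 ± 5.48 CPM per kb (SD, n = 6). Pcdhac2, a C-type gene required for the even spacing of serotonergic axons, was next at 10.6 ± 1.30 CPM per kb (SD, n = 6). Pcdhga11 followed at 8.76 ± 1.31, Pcdhgb6 at 7.96 ± 2.30 and Pcdhgb7 at 7.09 ± 1.07 CPM per kb (SD, n = 6). Those last 3 genes differ from their neighbours in the order by less than their spread, and so do Pcdhac2 and Pcdhga11 when their SDs are laid side by side.

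The lower end of the order was held by Pcdhb1, at 0.133 CPM per kb, Pcdha4 at 0.344 and Pcdha1 at 0.516. Pcdhb1 and Pcdha4 were the 2 genes that did not pass the filter on low counts in brain. Among genes that passed, the level ran from 0.516 in Pcdha1 to 3.29 ± 0.62 in Pcdha12 (SD, n = 6) for the 12 non-C-type Pcdha genes. For Pcdhb it ran from 0.542 in Pcdhb4 to 4.56 ± 0.54 in Pcdhb20. Pcdhga genes ran from 1.26 in Pcdhga1 to 8.76 in Pcdhga11, and Pcdhgb genes from 2.59 in Pcdhgb5 to 7.96 in Pcdhgb6, all in CPM per kb. Genes nearer the 3′ end of their cluster tended to be higher. The Spearman correlation between position in the cluster and level per kb was 0.749 over 14 Pcdha genes, 0.549 over 22 Pcdhb genes and 0.518 over 21 Pcdhg genes, as a description of genes that share the same 6 libraries.

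**Figure D1:**
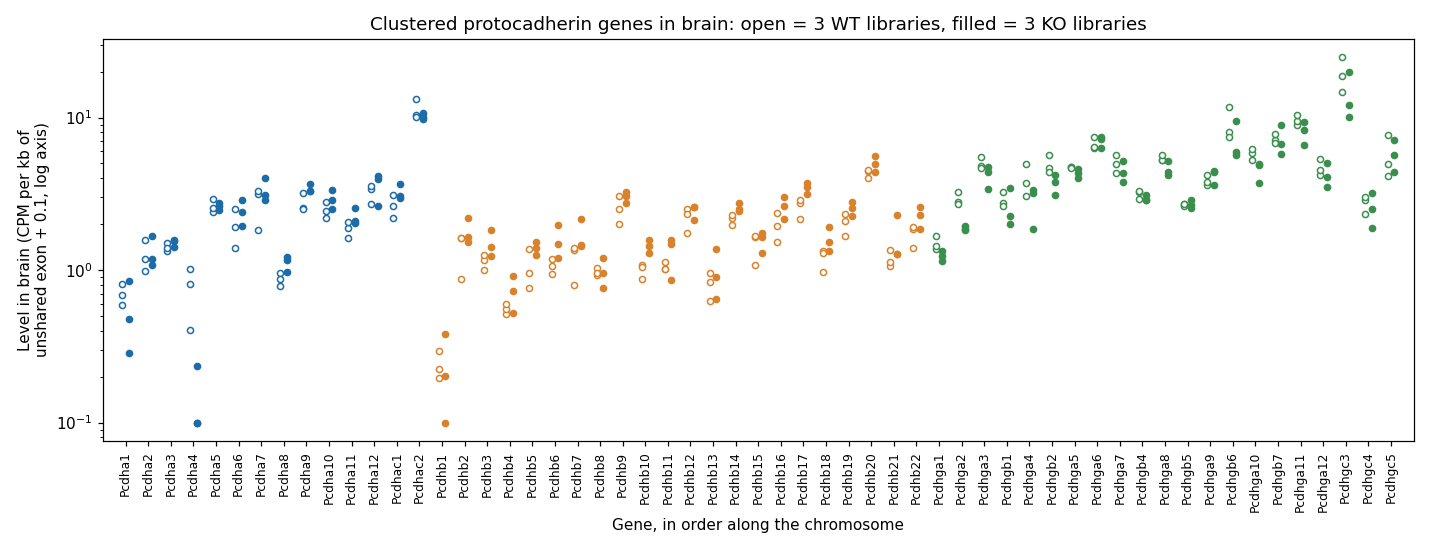
Level of each clustered protocadherin gene in brain, in CPM per kb of unshared exon plus 0.1 on a log axis, with genes in chromosomal order (blue Pcdha, orange Pcdhb, green Pcdhg). Open points are the 3 WT libraries and filled points the 3 KO libraries. Pcdhgc3 (mean 16.6 CPM per kb) and Pcdhac2 (10.6) have the highest means, and Pcdhb1 and Pcdha4 the lowest. Single libraries of other genes reach the Pcdhac2 points, such as Pcdhgb6 in WT mouse D at 11.7.

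The profile over the 57 genes was close in all brain libraries. Pearson correlations of log2(CPM per kb + 0.1) ran from 0.952 to 0.977 between WT libraries, from 0.928 to 0.957 between KO libraries and from 0.843 to 0.936 between a WT and a KO library. Spearman correlations between a WT and a KO library ran from 0.878 to 0.969. All these values rest on the same exon lengths, and the 3 lowest Pearson values belong to KO mouse A, the library with the fewest family counts.

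Liver served as the background tissue, in which neuron markers summed to at most 20.1 CPM, and the WT comparison gives the size of the tissue difference. The whole family drew 416 to 744 counts per liver library. Of the 57 genes, 18 passed the filter on low counts in liver, namely Pcdhb14 and 17 Pcdhg genes, and all of these 18 were higher in WT brain than in WT liver. Their log2 fold changes ran from 1.81 to 4.15 with a median of 3.03, beside a median of 0.16 over all 17694 genes tested, and their largest adjusted p was 0.000435 (edgeR quasi-likelihood test, Benjamini-Hochberg). Over all genes, 42.9% were called higher in brain at an adjusted p under 0.1. The 55 family members that could be tested were called as well, but 37 of them did not pass the filter in liver, so that count carries no weight of its own.

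The clusters differed in how much they were detected in liver. Pcdha was nearly silent there: 11 of its 14 genes had 0 counts in all 3 WT liver libraries, and the cluster had 6 counts in those libraries together against 5224 in WT brain. Against 3 counts over the 3 WT liver libraries, the upper limit for a count of 0, those 11 genes were at least 3.36-fold (Pcdha4) to at least 84.1-fold (Pcdha12) higher in WT brain. Pcdhac2 had 4 counts in WT liver and 1882 in WT brain, a ratio of 279 with an exact 95% counting interval from 109 to 1030.

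Pcdhb genes were low in liver, with 214 counts in the 3 WT libraries against 7647 in WT brain. Of the 22, 2 had no count and 6 had between 1 and 3 in WT liver. Pcdhb14, which encodes one of the adhesion molecules of the cluster and had the most liver counts in it, had 34 counts against 992, a ratio of 17.3 (95% counting interval 12.3 to 25.2). With genes at 0 set to their bound, the median log2 ratio of brain to liver was 4.43 for Pcdhb, 5.99 for Pcdha and 3.10 for Pcdhg. These intervals and bounds cover counting error only.

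Pcdhg genes held most of the liver signal, with 1489 counts in WT liver and shares of the family's counts between 84.4% and 88.6% in every liver library. Pcdhgc3 led again, at 8.50, 7.75 and 9.82 CPM in WT liver and 13.6, 11.4 and 9.86 CPM in KO liver, which is between 26.3% and 48.8% of the Pcdhg counts of a liver library. In brain Pcdhgc3 made up between 13.3% and 22.7% of the Pcdhg counts. The next 5 liver genes per kb were Pcdhgb2 at 0.741 ± 0.326, Pcdhgb7 at 0.541 ± 0.136, Pcdhgb6 at 0.535 ± 0.249, Pcdhga10 at 0.521 ± 0.240 and Pcdhga6 at 0.450 ± 0.164 CPM per kb (SD, n = 6). These 5 overlap each other within their spread and lie below Pcdhgc3, at 3.002 ± 0.619 CPM per kb. Brain and liver ranked some genes differently: Pcdhgc5, a C-type gene that follows at 5.56 ± 1.46 CPM per kb in brain, had 16 counts in WT liver against 1415 in WT brain, whereas Pcdhgb2 had 125 against 729. In bulk tissue, fewer cells that use a gene and less RNA per cell cannot be told apart.

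**Figure D2:**
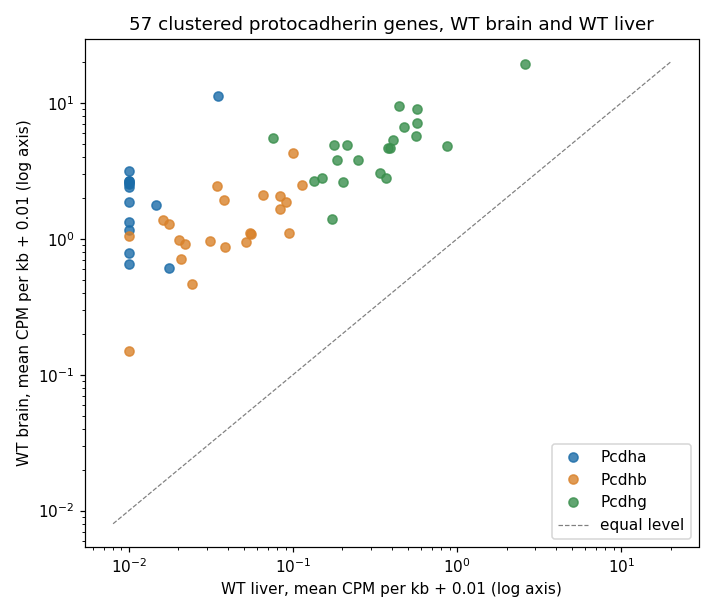
Mean level of the 57 clustered protocadherin genes in WT liver (x axis) and WT brain (y axis), each in CPM per kb of unshared exon plus 0.01 on log axes, coloured by cluster. Every gene lies above the dashed line of equal levels, Pcdha genes pile up at the left edge because 11 of 14 had no liver count, and Pcdhgc3 is the green point farthest to the right.

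KO and WT brain were compared to see whether loss of Mettl5 is accompanied by other protocadherin levels. No family member passed the threshold of an adjusted p under 0.1 over all 17188 genes (edgeR quasi-likelihood test, Benjamini-Hochberg), where 0.064% of genes did. At an unadjusted p under 0.05, 1 of the 55 genes tested was higher in KO (1.82%), against 5.96% of all genes, and 1 was lower (1.82%), against 5.01%. DESeq2 gave 0 calls among the members too, where it called 1.58% of all genes. At an unadjusted p under 0.05 it had 0 of 57 members higher, against 3.41% of all genes, and 2 lower, against 2.99%. In the edgeR fit the family as a whole held no larger share of small p-values than all genes.

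The fitted differences nevertheless had different signs in the 3 clusters. All 21 Pcdhb genes tested had a positive log2 fold change, with a median of 0.39 and a range from 0.02 to 0.58. Of the 21 Pcdhg genes, 17 had a negative one, with a median of -0.18 and a range from -0.65 to 0.10. Of the 13 Pcdha genes tested, 10 were positive, with a median of 0.24 and a range from -0.47 to 0.40. Over all genes tested the median was 0.00 and 49.8% were positive. The SE of a single member ran from 0.14 to 0.50, so most of these differences are smaller than 2 SE, and neighbouring members of a cluster share libraries and are not replicates of the genotype.

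**Figure D3:**
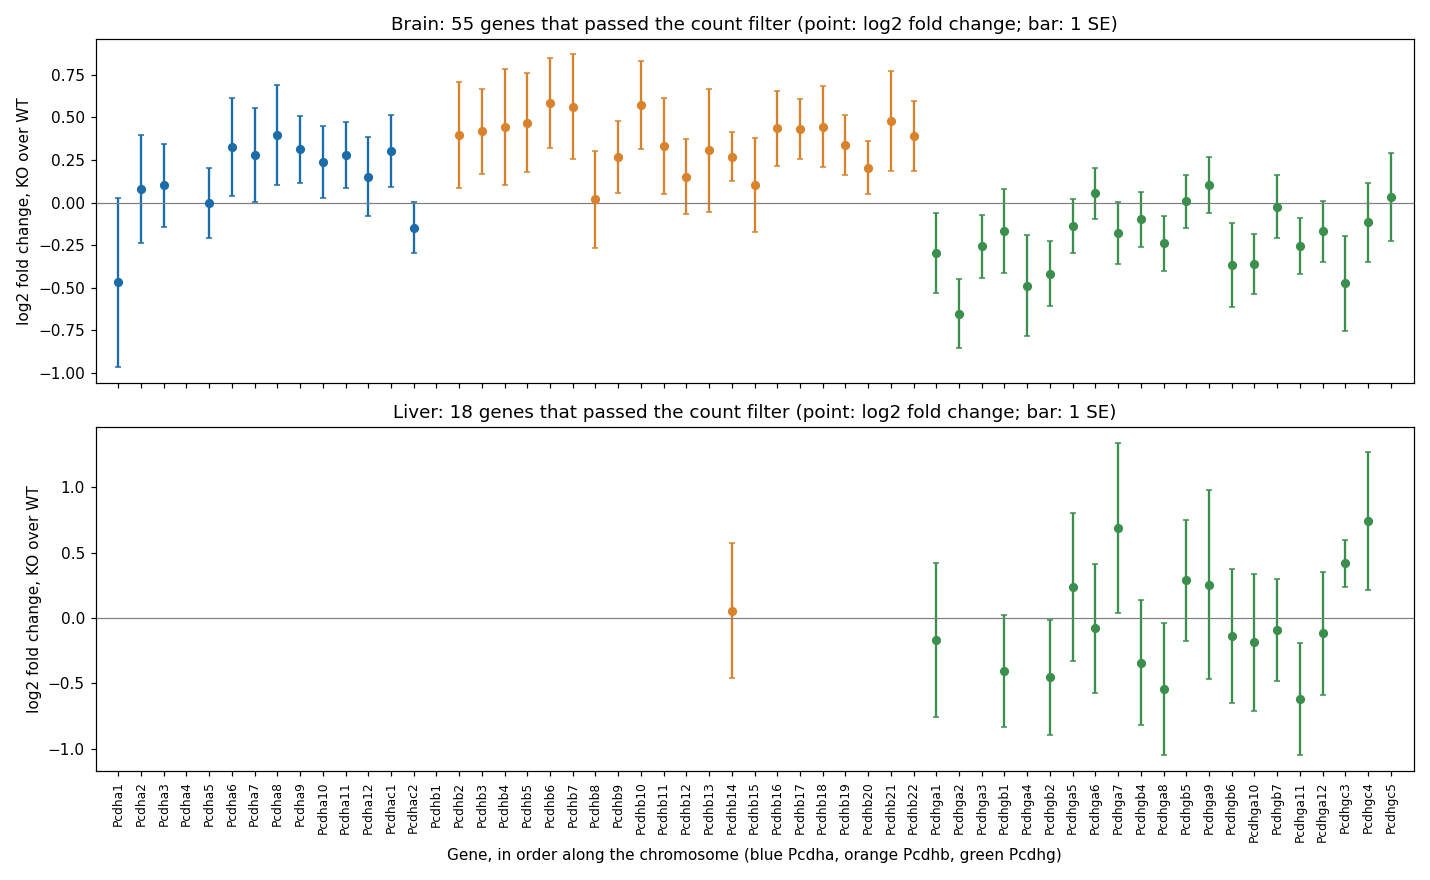
Log2 fold change of KO over WT for each clustered protocadherin gene that passed the count filter, in chromosomal order. The top panel is brain (55 genes) and the bottom panel liver (18 genes). Bars are 1 SE, computed from the edgeR fold change and F statistic. In brain the orange Pcdhb points all lie above 0 (median 0.39) and 17 of 21 green Pcdhg points below it, and none passed the threshold over all genes.

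Pcdhb17 had the smallest p of the Pcdhb genes. It was at 12.4, 9.53 and 12.9 CPM in WT brain and at 15.9, 14.3 and 16.8 CPM in KO brain, so the groups did not overlap. The fitted log2 fold change came to 0.43 (SE 0.17), at an unadjusted p of 0.0336 and an edgeR adjusted p of 0.418. Pcdhb6 was at 3.61, 3.16 and 4.07 CPM in WT and 6.99, 5.18 and 4.15 CPM in KO, with a log2 fold change of 0.58 (SE 0.27) and an edgeR adjusted p of 0.459. Its lowest KO library lies just above its highest WT library. Pcdhb10 was at 2.77, 2.21 and 2.71 CPM in WT and 3.82, 3.38 and 4.22 CPM in KO, with a log2 fold change of 0.57 (SE 0.26).

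The groups overlapped for the other Pcdhb genes named by the rule. Pcdhb16 was at 9.67, 7.43 and 11.9 CPM in WT and 13.2, 10.8 and 15.2 CPM in KO. Pcdhb22 was at 10.9, 8.03 and 11.2 CPM in WT and 15.3, 10.8 and 13.5 CPM in KO. In both, KO mouse C lay within the WT range. Pcdhb20, the highest Pcdhb gene per kb, was at 15.6, 13.9 and 15.7 CPM in WT and 19.5, 15.4 and 17.2 CPM in KO, with a log2 fold change of 0.20 (SE 0.16). Pcdhb4, the lowest one tested, was at 1.55, 1.71 and 1.86 CPM in WT and 2.36, 1.58 and 3.03 CPM in KO. Across Pcdhb, 5 genes had every KO library above every WT library (Pcdhb6, Pcdhb7, Pcdhb10, Pcdhb14 and Pcdhb17) and none the reverse, which is 23.8% of the 21 tested beside 8.41% of all genes tested.

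Pcdhga2 had the smallest p of the whole family in brain. It was at 6.90, 8.08 and 6.68 CPM in WT and at 4.47, 4.75 and 4.55 CPM in KO, without overlap. The fitted log2 fold change came to -0.65 (SE 0.20), at an unadjusted p of 0.00967 and an edgeR adjusted p of 0.360. Pcdhgb2 was at 15.5, 12.7 and 11.8 CPM in WT and 8.29, 10.1 and 11.4 CPM in KO, with a log2 fold change of -0.42 (SE 0.19) and an edgeR adjusted p of 0.459. Pcdhga10 was at 14.9, 13.6 and 15.9 CPM in WT and 9.43, 12.7 and 12.5 CPM in KO, with a log2 fold change of -0.36 (SE 0.18). In both of these the highest KO library lay just under the lowest WT library.

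Pcdhga4 was at 5.67, 7.63 and 4.67 CPM in WT and 2.76, 5.11 and 4.88 CPM in KO, and its groups overlapped. The highest Pcdhga and Pcdhgb genes overlapped too. Pcdhga11 was at 23.5, 24.6 and 27.3 CPM in WT and 17.2, 24.4 and 21.6 CPM in KO. Pcdhgb6 was at 20.2, 30.0 and 18.7 CPM in WT and 14.4, 24.1 and 15.03 CPM in KO. WT mouse D and KO mouse C were the highest libraries of their groups for Pcdhgb6, as they were for Pcdhgb7, at 18.2, 20.1 and 17.3 CPM in WT and 17.1, 22.8 and 14.8 CPM in KO.

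Pcdhga1, the lowest Pcdhga gene per kb, was at 4.12, 4.32 and 5.12 CPM in WT and 3.98, 3.38 and 3.69 CPM in KO, without overlap, with a log2 fold change of -0.30 (SE 0.23). The fitted values of the next 2 genes were near 0. Pcdhga6 was at 19.2, 16.4 and 16.6 CPM in WT and 16.2, 18.6 and 19.3 CPM in KO, with a log2 fold change of 0.05 (SE 0.15). Pcdhgb5 was at 11.99, 11.7 and 12.1 CPM in WT and 11.9, 12.8 and 11.3 CPM in KO, with a log2 fold change of 0.01 (SE 0.16). In all, 6 of the 21 Pcdhg genes had every KO library below every WT library and none the reverse, which is 28.6% beside 7.94% of all genes tested.

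Over the family, 7 of 55 genes (12.7%) lay above WT in every KO library and 6 of 55 (10.9%) below. Among all genes tested these shares were 8.41% and 7.94%. The 2 genes above WT outside Pcdhb were Pcdha8 and Pcdha9, and the 6 below were Pcdhga1, Pcdhga2, Pcdhga5, Pcdhga8, Pcdhga10 and Pcdhgb2. They were named after their values were seen.

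The 5 C-type genes showed no common direction in brain. Pcdhgc3, which restrains Wnt signalling through Axin1, varied most: it was at 49.7, 83.8 and 62.5 CPM in WT and 33.8, 67.0 and 40.3 CPM in KO, a log2 fold change of -0.47 (SE 0.28) with an edgeR adjusted p of 0.537. Its WT and KO libraries overlapped, with WT mouse D highest and KO mouse A lowest. Without the filter on low counts, Pcdhgc3 was the 1 member called, at a log2 fold change of -0.50 and an edgeR adjusted p of 0.0879, in a fit where 3.15% of all genes were called.

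Pcdhgc4, the C-type gene on which survival of many interneurons depends, was at 7.80, 9.73 and 10.1 CPM in WT and 6.26, 10.8 and 8.37 CPM in KO. Pcdhgc5 was at 22.4, 18.6 and 35.02 CPM in WT and 19.7, 32.1 and 25.8 CPM in KO. The groups overlapped widely for both, with log2 fold changes of -0.12 (SE 0.23) and 0.03 (SE 0.26). Pcdhac1 was at 6.51, 5.37 and 7.64 CPM in WT and 9.10, 7.62 and 7.38 CPM in KO, with a log2 fold change of 0.30 (SE 0.21). Pcdhac2 was at 31.4, 30.1 and 39.9 CPM in WT and 30.2, 29.4 and 32.0 CPM in KO, a log2 fold change of -0.15 (SE 0.15) that was 0.02 when GC content and length were taken into account.

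Among the non-C-type Pcdha genes, Pcdha12 was at 8.18, 6.42 and 8.54 CPM in WT and 9.92, 6.26 and 9.56 CPM in KO. Pcdha1, at the 5′ end of the cluster, was at 1.22, 1.46 and 1.76 CPM in WT and 1.87, 0.935 and 0.461 CPM in KO. Neither separated the genotypes. Pcdha4 did not pass the filter, with 7, 3 and 7 counts in WT brain and 0, 0 and 1 in KO brain, a WT to KO ratio of 12.7 with a 95% counting interval from 1.99 to 531. Its 494 unshared bases make it the least well measured member of its cluster.

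The levels were also summed over each cluster. The Pcdhb sum was 141.2, 122.2 and 151.7 CPM in WT brain and 190.2, 157.3 and 180.1 CPM in KO brain. All 3 KO libraries lay above all 3 WT libraries, and the ratio of the means was 1.27. The Pcdhg sum was 319.2, 369.7 and 351.5 CPM in WT and 254.0, 349.9 and 289.4 CPM in KO, a ratio of 0.859 with overlap. The Pcdha sum, at 93.7, 82.6 and 106.7 CPM in WT and 104.5, 93.9 and 102.8 CPM in KO, had a ratio of 1.06 with overlap, and without WT mouse D the log2 ratio was 0.00. The whole family summed to 579.6 ± 28.3 CPM in WT and 574.1 ± 26.3 CPM in KO (SD, n = 3), which differ by less than the SD.

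Ratios between clusters do not depend on how the libraries are scaled. The ratio of Pcdhg to Pcdhb counts was 2.26, 3.03 and 2.32 in WT brain and 1.34, 2.22 and 1.61 in KO brain, with a mean of 2.54 ± 0.43 in WT and 1.72 ± 0.45 in KO (SD, n = 3). The groups did not overlap, but KO mouse C, at 2.22, lay close to WT mouse B, at 2.26. The ratio of Pcdha to Pcdhb counts was 0.664, 0.676 and 0.703 in WT and 0.549, 0.597 and 0.571 in KO. Pcdhac2 made up between 33.5% and 37.4% of the Pcdha counts in WT and between 28.9% and 31.3% in KO. No test is given for these sums and ratios, since the members were chosen with earlier results of these data known. In liver the ratio of Pcdhg to Pcdhb counts was 6.84, 5.48 and 8.24 in WT and 7.86, 5.81 and 7.59 in KO, with complete overlap.

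**Figure D4:**
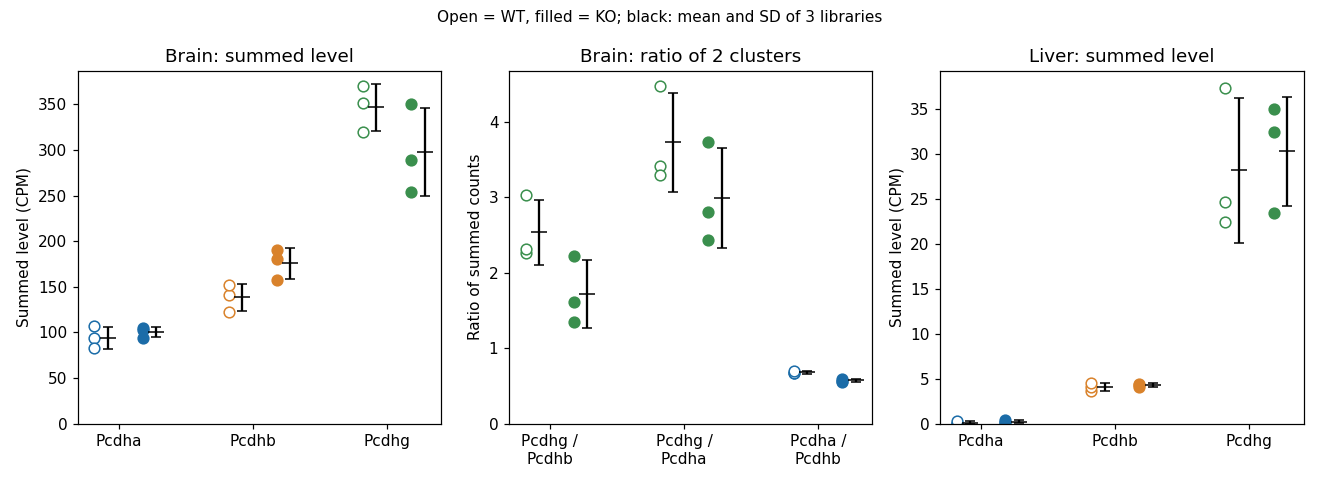
Summed level of each cluster in brain (left, CPM), ratio of the summed counts of 2 clusters in brain (middle) and summed level in liver (right, CPM). Open points are WT and filled points KO libraries, and black marks give the mean and SD of 3 libraries. In brain the Pcdhb sum and both ratios over Pcdhb separate the genotypes, and in liver the groups overlap for every cluster.

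Brain region markers, mitochondrial counts and GC content moved along with this contrast, and their part in it was not tested. All 8 olfactory bulb markers had positive fold changes in KO brain, and their summed level was 7.28 to 17.2 CPM in WT against 45.4 to 68.0 CPM in KO. All 5 cerebellar granule cell markers had negative ones, with 573.4 to 952.9 CPM in WT against 79.99 to 392.9 CPM in KO. The same sign was found for all 4 Purkinje cell markers, at 1715 to 2152 CPM against 809.5 to 1286 CPM, and for all 7 choroid plexus markers, at 227.2 to 389.8 CPM against 114.5 to 184.0 CPM. These 4 lists separated the genotypes without overlap, and no marker of them was at the floor in brain. Of the 11 genes called in KO against WT brain, over 17188 tested in edgeR, 5 were among the 8 olfactory bulb markers, all higher in KO. None of the other marker lists held a called gene in brain.

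The other lists did not separate the groups in brain. Neuron markers summed to 3084 to 3730 CPM in WT and 3365 to 3574 CPM in KO, and 2 of 5 had positive fold changes. Oligodendrocyte markers summed to 2493 to 3100 CPM and 2326 to 2881 CPM, with 2 of 6 positive. Astrocyte markers summed to 1029 to 1338 CPM and 886.9 to 1049 CPM, with all 5 negative. Microglial markers (67.5 to 79.7 and 69.9 to 87.8 CPM), endothelial markers (50.4 to 74.8 and 38.2 to 54.2 CPM) and meningeal fibroblast markers (33.7 to 49.1 and 33.6 to 44.1 CPM) overlapped as well. Serotonergic markers, of which 2 of 4 could be tested, summed to 0.955 to 3.93 and 1.58 to 8.78 CPM, and hepatocyte markers to 13.8 to 30.5 and 11.6 to 16.0 CPM.

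Placed in order of the Pcdhg to Pcdhb ratio, the 6 brain libraries ran from WT mouse D (3.03) through WT mouse E (2.32), WT mouse B (2.26), KO mouse C (2.22) and KO mouse F (1.61) to KO mouse A (1.34). Purkinje cell markers gave the same order, at 2152, 1795, 1715, 1286, 1005 and 809.5 CPM. The mitochondrial share of all counts gave the reverse order, at 9.33%, 13.35%, 19.87%, 23.29%, 24.15% and 33.74%. Choroid plexus markers followed the order but for WT mice B and E, which stood at 273.2 and 227.2 CPM. Granule cell markers departed from it at the same 2 mice, at 952.9, 573.4, 690.6, 392.9, 287.3 and 79.99 CPM. Astrocyte markers, which did not separate the genotypes, departed from it only at WT mouse B and KO mouse C, at 1029 and 1049 CPM. Endothelial markers, which overlapped too, departed from it only at KO mouse C, at 54.2 CPM. Neuron, oligodendrocyte and microglial markers did not follow the order. Olfactory bulb markers did not follow it: they stood at 17.2, 10.7, 7.28, 68.0, 54.0 and 45.4 CPM, so that they were higher in KO but fell along the order within each genotype.

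GC content differed between the clusters, with a median of 46.1% in the exons of Pcdhb genes, 53.0% in Pcdha and 52.6% in Pcdhg. Over all genes tested in brain, the median log2 fold change was 0.13 at 40 to 45% GC, 0.00 at 45 to 50% and -0.11 at 50 to 55%, and the share of positive values was 69.9%, 50.1% and 35.4%. The shares of positive values were 100% in Pcdhb, 19.0% in Pcdhg and 76.9% in Pcdha. With an offset for GC content and length, the median was 0.33 for Pcdhb, 0.33 for Pcdha and -0.09 for Pcdhg, and all 21 Pcdhb, 12 of 13 Pcdha and 7 of 21 Pcdhg genes were positive. No member was called in that fit.

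**Figure D5:**
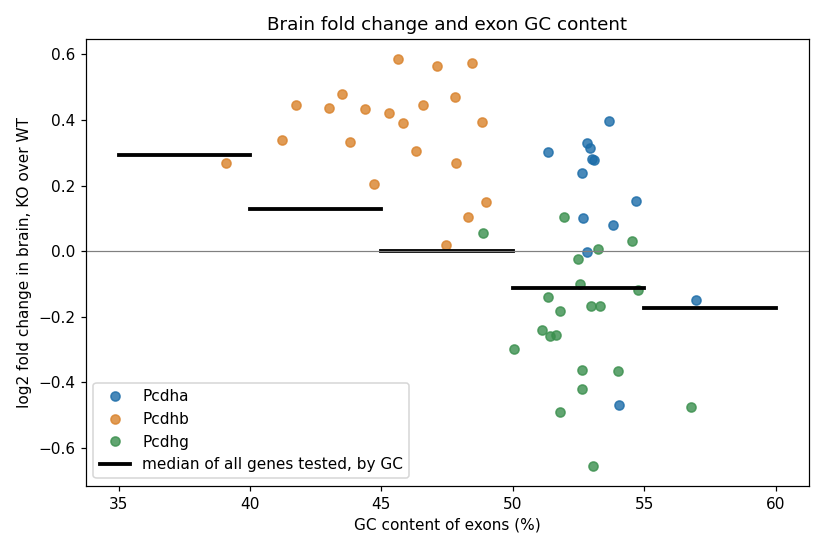
Log2 fold change in brain, KO over WT (y axis), of the 55 clustered protocadherin genes tested against the GC content of their exons in percent (x axis). Black bars give the median of all genes tested in each 5% range of GC content, from 0.29 at 35 to 40% to -0.17 at 55 to 60%. Pcdhb genes sit at lower GC content than Pcdhg genes, and Pcdha genes share the GC content of Pcdhg but lie mostly above 0.

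Leaving out single libraries changed the size but not the sign of the cluster medians in brain. Without KO mouse A, the library with the largest mitochondrial share, the median log2 fold change was 0.27 for Pcdhb, 0.16 for Pcdha and -0.13 for Pcdhg, with 20 of 21 Pcdhb genes positive and 15 of 21 Pcdhg genes negative. Without WT mouse D the medians were 0.28 for Pcdhb, with 19 of 21 genes positive, 0.12 for Pcdha and -0.16 for Pcdhg. Without KO mouse C they were 0.50, 0.33 and -0.30 in the same order. The mean Pcdhg to Pcdhb ratio of KO brain was 1.92 without mouse A and 1.48 without mouse C, against 2.54 in WT, and without WT mouse D the WT mean was 2.29.

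KO and WT liver gave 0 calls among the 18 members tested, as over all 14075 genes (0%; edgeR quasi-likelihood test). At an unadjusted p under 0.05, 1 member was higher, against 2.76% of all genes, and 0 were lower, against 4.57%; DESeq2 gave 0 calls, against 1.1% of all genes, and 0 members at that p in either direction, against 1.33% higher and 2.44% lower. The 1 member was Pcdhgc3, whose 3 KO libraries, at 13.6, 11.4 and 9.86 CPM, lay above its WT libraries, at 8.50, 7.75 and 9.82 CPM, the last by a small margin. The fitted log2 fold change came to 0.42 (SE 0.18), at an unadjusted p of 0.0479 and an edgeR adjusted p of 0.674. Pcdhgb2, the next liver gene, was at 1.75, 1.67 and 3.69 CPM in WT and 1.93, 1.01 and 2.24 CPM in KO. Pcdhgb7 was at 1.13, 1.28 and 1.93 CPM in WT and 1.51, 0.952 and 1.62 CPM in KO.

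The remaining liver genes overlapped between genotypes in the same way. Pcdhgb6 was at 1.70, 1.09 and 1.53 CPM in WT and 0.723, 0.784 and 2.40 CPM in KO. Pcdhga10 was at 1.49, 0.576 and 2.27 CPM in WT and 1.26, 0.784 and 1.77 CPM in KO. Pcdhga6 was at 1.24, 1.09 and 1.31 CPM in WT and 1.21, 0.448 and 1.77 CPM in KO. These 5 genes had 8 to 65 counts per liver library, and the SE of their log2 fold changes ran from 0.39 to 0.53. The brain log2 fold change of each was smaller in size than its own SE in liver. The liver values therefore cannot decide whether differences of that size were present.

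The genotype effect in brain was then set against that in liver in one model over all 12 libraries. Of the 18 members that passed the filter in liver, 0 passed the threshold (edgeR), as over all 18944 genes (0%), and DESeq2 gave 0 of them too, where it called 2.08% of all genes. At an unadjusted p under 0.05, 0 of these 18 were higher, against 5.07% of all genes, and 1 was lower, against 5.51%. That gene was Pcdhgc3, with a difference of log2 fold changes of -0.92 (SE 0.36, edgeR adjusted p 0.395). The other 37 members tested passed through brain only and had few or no liver counts, with a median SE of the difference of 1.09 beside 0.45 for the 18, so that the absence of calls among them carries no weight. Of these 37, Pcdhb18 and Pcdhb3 had an unadjusted p under 0.05 and were named after their values were seen. Pcdhb18, with 2 to 9 counts per liver library, had a difference of 1.71 (SE 0.55, edgeR adjusted p 0.313). Pcdhb3, at -3.70 (SE 1.59, edgeR adjusted p 0.446), had no count in WT liver, so its fitted value depends on the prior count. For Pcdhgc3 the brain value was -0.47 and the liver value 0.42.

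Genes that act on or with the clustered protocadherins were taken from 4 lists. Of the 19 genes for promoter choice and chromatin at the clusters, 0 were called in brain and the median log2 fold change was -0.02. At an unadjusted p under 0.05, 1 was higher (5.26%), against 5.96% of all genes, and 2 were lower (10.5%), against 5.01%. Ctcf, whose product binds the protocadherin promoters and enhancers, was at 66.2 ± 4.43 CPM in WT and 65.5 ± 3.64 CPM in KO (SD, n = 3). Nipbl, which loads cohesin, was at 101 ± 11.9 and 130 ± 7.22 CPM, with a log2 fold change of 0.36 (SE 0.14) and an adjusted p of 0.408 in edgeR. Dnmt1 and Dnmt3b, which methylate DNA, were at 62.9 ± 11.5 and 1.72 ± 0.56 CPM in WT and at 45.4 ± 10.9 and 0.760 ± 0.493 CPM in KO, with edgeR adjusted p of 0.437 and 0.450.

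Of 14 binding partners and signalling proteins of the cytoplasmic domains, 0 were called and 0 had an unadjusted p under 0.05 in brain, with a median of 0.00. All 6 genes for the proteases that cleave the clustered protocadherins had negative log2 fold changes, with a median of -0.24, and 0 had an unadjusted p under 0.05. Among them Ncstn, a subunit of gamma-secretase, was at 21.2 ± 3.78 CPM in WT and 16.8 ± 1.86 CPM in KO (edgeR adjusted p 0.493).

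The non-clustered protocadherins, single genes that are not part of the 3 clusters, had mostly positive fold changes in brain. Of the 12, 11 were tested and 0 were called, with a median of 0.33, and 4 (36.4%) were higher at an unadjusted p under 0.05 against 5.96% of all genes. Pcdh15, which forms the tip links of hair cells, was at 35.4, 23.3 and 35.1 CPM in WT and 52.2, 43.8 and 51.7 CPM in KO, with a log2 fold change of 0.65 (SE 0.18) and an adjusted p of 0.345 in edgeR. Pcdh11x, Pcdh17 and Pcdh10 had log2 fold changes of 0.59, 0.50 and 0.43, with edgeR adjusted p of 0.395, 0.405 and 0.423. The part of GC content and of brain region in these values was not tested. In liver, 7 were tested, 0 were called and 3 (42.9%) were higher at an unadjusted p under 0.05 against 2.76% of all genes, namely Pcdh9, Pcdh12 and Pcdh18, with edgeR adjusted p of 0.528, 0.659 and 0.659.

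Genes within 500 kb of the clusters on chromosome 18 gave the local background. Of 37 tested in brain, 0 were called, 1 was higher and 1 lower at an unadjusted p under 0.05, against 5.96% and 5.01% of all genes, and the median log2 fold change was -0.04, with 15 positive and 22 negative. Pcdhgb8, left out of the family as an annotated pseudogene, had 125, 133 and 161 counts in WT brain and 59, 122 and 100 in KO brain, with a log2 fold change of -0.17 (SE 0.25) and an adjusted p of 0.789 in edgeR.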

How the data were processed

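Stranded total RNA libraries from brain and liver of 6 mice were sequenced by the authors as single-end reads, trimmed with Trimmomatic, aligned to mm10 with STAR 2.7.3a and counted over exons with featureCounts set to reverse strand. The deposited values are whole read counts per gene, without normalisation. The authors compared genotypes with DESeq2. Gene models of GENCODE M21 gave exon overlaps, biotype and GC content.

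Genotype and tissue were tested in edgeR 4.0.16 under R 4.3.3 (TMM, filterByExpr, robust quasi-likelihood F test, Benjamini-Hochberg over all genes tested, call at adjusted p under 0.1), within each tissue on 6 libraries, on the 6 WT libraries for brain against liver, and on 12 libraries for the brain effect minus the liver effect. CPM are counts over the TMM-adjusted library total. The SE of an edgeR fold change is its absolute log2 value divided by the square root of the F statistic. That SE is approximate and fails where the fold change is near 0 or a group has no counts. For Pcdhgb2 in the difference between tissues, for example, it came to 0.0198. The fit was tested on simulated data. Alternatives were no filter, RLE factors, DESeq2 1.42.0, all 12 libraries, a Y-linked term, a GC and length offset and leaving out each library.

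Library totals were 14403309 to 21623180 counts, and no 2 libraries of the same group were alike within sampling noise. Groups follow the labels, which do not say more than animal, so p-values measure the spread between these mice. The labels pair brain and liver by mouse; deviations of the 2 tissues of a mouse correlated between -0.0385 and 0.141 over 12574 genes. Members, lists and the naming rule (C-type genes, highest and lowest member of each subfamily in brain, any called member, the 5 smallest p in each direction in brain, the 6 highest in liver) were chosen with earlier results of these data known. The annotation gives 2 genes the symbol Pcdha11; one is named Pcdha10 here after RefSeq (GRCm38.p6). Exon counts do not separate exon 2 of Mettl5.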

Additional observations from a re-analysis of the deposited data

How the results depend on the processing

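No member was called in KO against WT brain or liver, or in the difference between tissues, under any alternative run, except Pcdhgc3 in brain with no filter on low counts (1 call). The 18 members that passed the filter in liver were all called higher in WT brain under each alternative, with a median log2 fold change from 2.74 to 3.29. Counts over the 55 members tested, or 57 with no filter or DESeq2, carry no weight, since 37 of them passed through brain only. With mouse as a replicate block, 55 were called in brain against liver, among them the same 18. In the difference between tissues the block gave 0 members, against 0.359% of all genes, and there too only the 18 bear on the count. No paired analysis of genotype was run, because the paper speaks of pairs but the labels do not tie a KO mouse to a control. At an unadjusted p under 0.05, with the share of all genes in the same fit in brackets, members higher in KO brain numbered 1 in the fit reported (5.96%), 0 with DESeq2 (3.41%), 0 with all 12 libraries (4.21%), 2 under the offset for GC content and length (6.33%), and 0 to 4 when single libraries were left out (3.25% to 8.56%). Members lower in KO brain numbered 1 in the fit reported (5.01%), 5 of 57 with no filter (5.47%), 2 with DESeq2 (2.99%), 0 with all 12 libraries (5.08%) and 1 to 3 when single libraries were left out (2.04% to 10.4%). In liver, members higher numbered 1 in the fit reported (2.76%), 0 with DESeq2 (1.33%), 0 under the same offset (2.84%) and 0 to 1 without single libraries (1.72% to 3.75%), and members lower numbered 0 but for 1 of 55 with all 12 libraries (4.17%). The cause of these moves was not tested. Of 288 values of 24 named genes in brain, 1 (Pcdhac2 with the GC and length offset) moved from the fit reported by more than its SE with a change of sign.

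The Pcdhb and Pcdhg sums kept their direction under the other library totals, without the highest member and without single libraries. The Pcdha sum had none to keep without WT mouse D, and its log2 ratio was 0.21 without Pcdhac2 against 0.09 with it. The log2 ratio of KO to WT ran from 0.26 to 0.42 for Pcdhb, from -0.35 to -0.12 for Pcdhg and from 0.00 to 0.19 for Pcdha when single libraries were left out. Pcdhgc3 stayed first in the order of levels with the deposited exon length and with a pseudocount of 1. The 39 members under the filter in liver were not tested there; liver libraries held 16145754 to 21623180 counts, against 14403309 to 18365114 in brain.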
